A study of Homo sapiens with 4 samples.

Results

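The 10 genes described here are 8 metallothionein genes, MT1A, MT1E, MT1F, MT1G, MT1H, MT1M, MT1X and MT2A, together with MTF1 and SLC30A1. They were taken by gene name from a table of 58174 genes, and each name matched 1 row. Their messages were measured by mRNA sequencing in 2 human cell lines, the hepatocellular carcinoma line LM3 and RBE, which comes from an intrahepatic cholangiocarcinoma. Both lines received, by lipofection and 48 h before RNA was taken, either small interfering RNA to FENDRR, a long noncoding RNA (si-FENDRR), or the control RNA si-NC. This gave 1 library each of LM3 si-FENDRR, LM3 si-NC, RBE si-FENDRR and RBE si-NC, with no replicate culture named. Values are FPKM, fragments scaled by gene length and by mapped fragments, as the authors deposited them.

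Metallothioneins are small cysteine-rich proteins that hold zinc, copper and cadmium in thiolate clusters. The zinc-finger factor MTF1 senses free zinc and switches on its target genes through metal response elements, short motifs that stand in several copies in metallothionein promoters. SLC30A1, also called ZnT1, moves zinc out across the plasma membrane and is itself a target of MTF1. Hepatocytes are rich in metallothioneins, and several MT1 genes are known to be lowered in hepatocellular carcinoma.

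Between 13437 and 13682 genes per library reached 1 FPKM. FENDRR was listed at 0 in all 4 libraries, so the knockdown could not be checked and the transfections are compared by label. The lines carried markers of their labelled tumours in part. In LM3, ALB was at 35.7 and 33.3 FPKM with si-FENDRR and si-NC, against 0.251 and 0.270 FPKM in RBE. KRT7, a biliary keratin, was at 7.21 and 6.02 FPKM in LM3, against 429 and 391 FPKM in RBE. Of 18 hepatocyte markers, 13 passed the filter on low values, with 5 called higher in LM3 and 5 called lower. Among those called lower was SERPINA1, at 0.0957 and 0.0892 FPKM in LM3 with si-FENDRR and si-NC, against 56.8 and 82.5 FPKM in RBE. The 18 hepatocyte markers summed to 239 FPKM in both LM3 libraries, against 177 and 217 FPKM in RBE. Among the apolipoprotein genes, APOA1, APOA2 and APOB stayed under 1 FPKM throughout. APOH was at 37.5 and 32.2 FPKM in LM3 with si-FENDRR and si-NC, against 27.6 and 29.8 FPKM in RBE. Of 15 cholangiocyte markers, 10 passed, with 1 called higher in LM3 and 7 called lower. The 1 called higher, SPP1, was at 1118 and 909 FPKM in LM3, against 515 and 504 FPKM in RBE. Over all tested genes, 58.7% were called between the lines.

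Metallothionein messages were low in LM3 and carried by 2 genes in RBE. MT2A and MT1E accounted for nearly all of the family in RBE, while in LM3 MT2A stood near 3 FPKM and MT1E was listed at 0. MT1X and MT1F were weak in RBE and weaker or listed at 0 in LM3. MT1G, MT1H and MT1M were listed at 0 in all 4 libraries. MTF1 and SLC30A1 were expressed in all 4 libraries and were not called between the lines, and no member was called between the transfections.

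Promoters are shown for the 3 metallothioneins among the members that had a RefSeq promoter entry. In RBE these genes sat at a high, a low and a listed zero level. MT1A, MT1E, MT1F, MT1G and MT1M had no entry, so their promoters could not be searched. Of the 10 genes, 5 had an entry in the promoter table of RefSeq on GRCh38.p14, namely MT2A, MT1X, MT1H, SLC30A1 and MTF1. Each window runs from 250 bases before the RefSeq start to 50 bases after it. Capitals mark matches to the core of the metal response element, TGCACNC or TGCGCNC, on either strand. The windows lie at chr16:56608334-56608633 for MT2A, chr16:56682220-56682519 for MT1X and chr16:56669564-56669863 for MT1H, all on the plus strand.
MT2A: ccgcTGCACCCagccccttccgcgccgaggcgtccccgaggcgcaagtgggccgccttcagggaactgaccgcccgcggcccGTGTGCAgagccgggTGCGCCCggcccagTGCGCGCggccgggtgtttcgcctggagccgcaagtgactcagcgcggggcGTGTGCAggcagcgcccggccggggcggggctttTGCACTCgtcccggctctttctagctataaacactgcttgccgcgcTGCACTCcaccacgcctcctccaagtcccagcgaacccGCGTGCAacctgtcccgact
MT1X: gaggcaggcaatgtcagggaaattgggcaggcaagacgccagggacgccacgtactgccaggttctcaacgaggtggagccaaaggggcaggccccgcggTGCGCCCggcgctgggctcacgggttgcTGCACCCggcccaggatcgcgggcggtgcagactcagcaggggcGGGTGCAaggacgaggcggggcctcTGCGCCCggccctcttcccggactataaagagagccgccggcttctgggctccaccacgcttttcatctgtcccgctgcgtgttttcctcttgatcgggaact
MT1H: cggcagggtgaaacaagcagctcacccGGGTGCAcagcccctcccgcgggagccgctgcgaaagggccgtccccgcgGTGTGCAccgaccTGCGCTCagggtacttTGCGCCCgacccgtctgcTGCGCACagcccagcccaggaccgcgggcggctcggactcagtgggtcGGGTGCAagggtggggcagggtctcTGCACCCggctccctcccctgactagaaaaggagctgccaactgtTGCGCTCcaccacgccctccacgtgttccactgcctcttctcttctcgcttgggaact

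MT2A held 8 matches to the core, 5 on its own strand and 3 on the other. MT1H, listed at 0 in every library, also held 8, again 5 and 3. MT1X held 4, SLC30A1 held 2 and MTF1 held 0. Of 34943 promoter windows of this length, 29.5% held at least 1 match, 8.58% at least 2, 0.598% at least 4 and 0.02% at least 8. A TATA box (TATAAA on the gene's strand, in 7.35% of the windows) stood 29 bases before the start in MT2A and 30 bases before it in MT1X, and was not matched in the MT1H window. The core of the antioxidant response element (TGACNNNGC, either strand, in 13.3% of the windows) was matched 1 time each in MT2A, MT1X and SLC30A1. No match to the metal response element overlapped a match to another motif. The SLC30A1 window lies upstream of the gene span in the deposited table, and the MT2A window lies wholly inside the MT2A span given there. These matches describe letters in a window and not bound sites. Among the metallothioneins with a window, the promoters with 8 matches belonged to the most abundant member and to a member listed at 0. Whether the number of matches bears on the level was not tested.

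**Figure D1:**
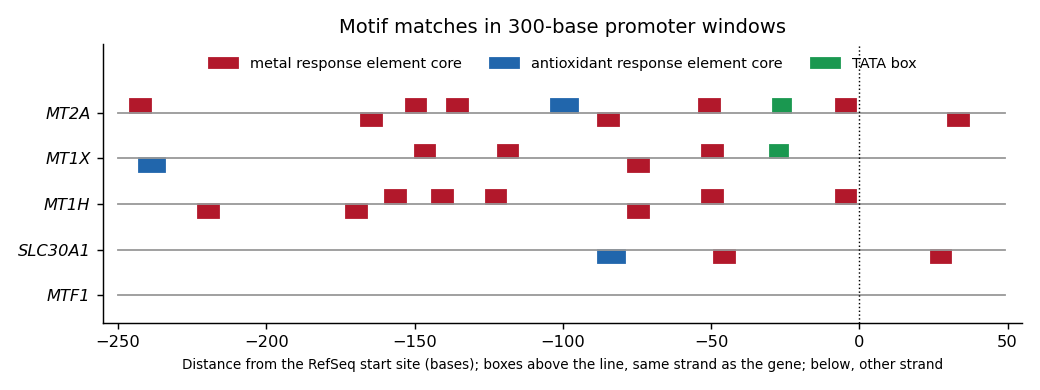
Matches to the metal response element core, the antioxidant response element core and the TATA box in the promoter windows of 5 members, by distance in bases from the RefSeq start site (dotted line). Boxes above a line are on the strand of the gene and boxes below it on the other strand (the TATA box was searched on the gene's strand). MT2A and MT1H each hold 8 metal response element matches.

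Both genes that make up the RBE signal encode proteins of 61 residues, 20 of them cysteine. Their coding sequences are shown because these parts of the 2 messages are closely alike, which bears on how reads are assigned. In GENCODE release 29, the coding sequences of MT2A and MT1E differ at 14 of 186 bases, set in capitals.
MT2A: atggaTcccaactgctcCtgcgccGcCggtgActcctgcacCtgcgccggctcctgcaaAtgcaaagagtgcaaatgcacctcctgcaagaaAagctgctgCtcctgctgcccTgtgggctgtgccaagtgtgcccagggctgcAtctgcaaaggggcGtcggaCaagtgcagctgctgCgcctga
MT1E: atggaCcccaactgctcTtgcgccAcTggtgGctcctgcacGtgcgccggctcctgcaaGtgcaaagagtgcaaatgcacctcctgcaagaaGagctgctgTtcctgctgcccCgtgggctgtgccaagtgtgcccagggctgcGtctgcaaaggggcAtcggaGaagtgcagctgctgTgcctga

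Among the 28 pairs of the 8 metallothioneins, coding sequences were 88.7% to 95.2% identical, lowest for MT1F with MT1X and highest for MT1G with MT2A. Of all 50-base windows in the annotated transcripts, 3.02% in MT2A, 7.1% in MT1E and 18.26% in MT1X occurred in transcripts of another gene. None of these windows was shared between MT2A and MT1E. With 100-base windows, MT2A, MT1E, MT1F, MT1A, MT1G and MT1M shared none. MT1H shared 1.39% with MT1HL1, and MT1X shared 11.34% with AC026461.1, which overlaps it on its strand. Read length and the handling of multiply mapped reads are not stated in the sources read here, so splits between paralogs are uncertain.

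MT2A (ENSG00000125148, chromosome 16, 56608199 to 56609497, plus strand of hg38) is the main human metallothionein of most tissues. It was at 2.57 FPKM after si-FENDRR and 2.99 after si-NC in LM3, against 72.7 and 62.5 FPKM in RBE. The lines did not overlap, with 2 libraries each, and 26.4% of all tested genes were called lower in LM3. In bulk RNA, fewer expressing cells and less message per cell cannot be told apart. The log2(FPKM + 1) difference of LM3 minus RBE was -4.18 ± 0.15 (SE, n = 2 libraries per line, adjusted p = 0.000785 by limma). In RBE it ranked 872 and 1024 among all genes, with 93.6% and 92.4% of the genes at or above 1 FPKM below it. In LM3 it ranked 11083 and 10584.

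MT1E (ENSG00000169715, chromosome 16, 56625475 to 56627112, plus strand) had a listed 0 in both LM3 libraries, against 64.9 FPKM after si-FENDRR and 52.0 after si-NC in RBE. Since LM3 was at 0, no fold is given, and limma called the difference at an adjusted p = 0.000584. Of the 15930 tested genes, 46 (0.289%) were likewise under 0.1 FPKM in both LM3 libraries and at 10 FPKM or more in both RBE libraries, a pattern described here after the values were seen. MT1E ranked 991 and 1264 among all genes in RBE.

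MT1X (ENSG00000187193, chromosome 16, 56682424 to 56684196, plus strand) was at 0.185 FPKM after si-FENDRR and 0.328 after si-NC in LM3, against 4.69 and 4.54 FPKM in RBE. The log2(FPKM + 1) difference of LM3 minus RBE was -2.16 ± 0.15 (SE, n = 2 libraries per line, adjusted p = 0.00195 by limma). An exon of the model AC026461.1, listed at 0 in all 4 libraries, overlaps it on the same strand, so how their reads were divided is uncertain. MT1F (ENSG00000198417, chromosome 16, 56657694 to 56660698, plus strand) had a listed 0 in both LM3 libraries, against 1.99 and 1.11 FPKM in RBE, and was called at an adjusted p = 0.0091 by limma.

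MT1A (ENSG00000205362, chromosome 16, 56638666 to 56640087, plus strand) was at 0.188 FPKM after si-FENDRR and 0.585 after si-NC in LM3, against a listed 0 in both RBE libraries. It stayed under 1 FPKM and was not tested. MT1G (56666731 to 56668065, minus strand), MT1H (56669814 to 56671129, plus strand) and MT1M (56632233 to 56633986, plus strand), all on chromosome 16, were listed at 0 in the 4 libraries. Without read counts, a listed 0 sets no upper limit on their level.

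Between the lines, 6 of the 10 members could be tested, with 4 called lower in LM3, 0 called higher and 2 not called. Over all tested genes, 58.7% were called, 26.4% lower in LM3 and 32.3% higher. MT1E, MT1F and MT1X passed the filter only through RBE, which favours a difference between the lines, and the count of called members therefore supports nothing further. Of the members above 1 FPKM in both lines, MT2A was called and MTF1 and SLC30A1 were not.

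MTF1 (ENSG00000188786, chromosome 1, 37809567 to 37859620, minus strand) was at 2.50 FPKM after si-FENDRR and 2.64 after si-NC in LM3, against 2.86 and 2.76 FPKM in RBE. Its log2(FPKM + 1) difference of LM3 minus RBE was -0.09 ± 0.13 (SE, n = 2 libraries per line, adjusted p = 0.575 by limma). SLC30A1 (ENSG00000170385, chromosome 1, 211571568 to 211578742, minus strand) was at 7.85 and 7.59 FPKM in LM3, against 6.68 and 6.76 FPKM in RBE. Its log2(FPKM + 1) difference was 0.18 ± 0.12 (SE, n = 2 libraries per line, adjusted p = 0.272 by limma). The 95% intervals of these differences ran from -0.47 to 0.28 for MTF1 and from -0.16 to 0.51 for SLC30A1, so differences of that size remain possible. In each of the 4 libraries SLC30A1 stood above MTF1 in FPKM.

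**Figure D2:**
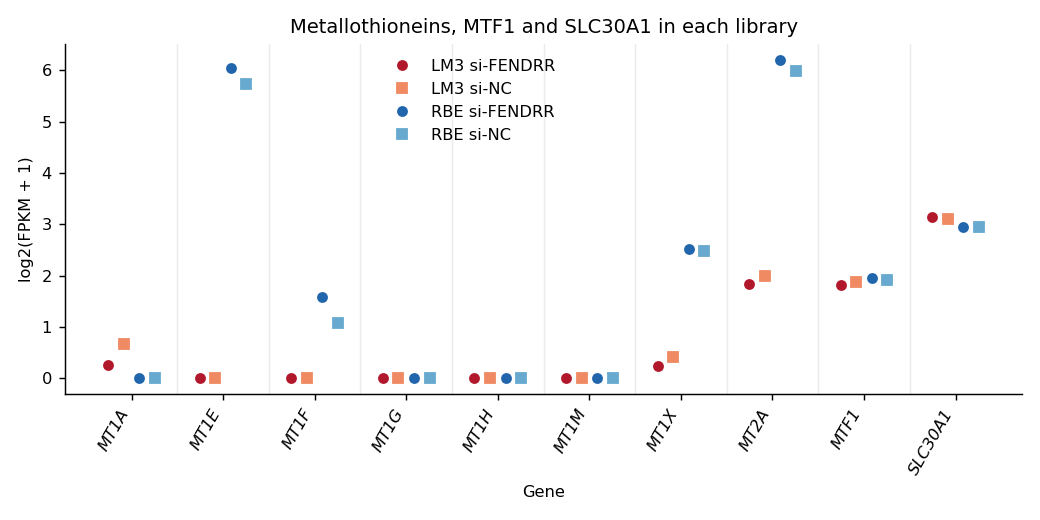
log2(FPKM + 1) of the 10 members in LM3 si-FENDRR, LM3 si-NC, RBE si-FENDRR and RBE si-NC, 1 point per library and no error bars since each group is 1 library. MT2A, MT1E, MT1X and MT1F are higher in both RBE libraries than in both LM3 libraries, while MTF1 (2.50 to 2.86 FPKM) and SLC30A1 (6.68 to 7.85 FPKM) were not called between the lines.

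Summed over the 8 metallothioneins, LM3 held 2.94 FPKM after si-FENDRR and 3.90 after si-NC, against 144 and 120 FPKM in RBE. MT2A made up 87.3% and 76.6% of the sum in LM3, against 50.4% and 52.0% in RBE. MT1E made up 45.0% and 43.3% of it in RBE and none of it in LM3. MT1X made up 6.28% and 8.41% in LM3, against 3.25% and 3.78% in RBE. The rest in LM3 was MT1A, at 6.39% and 15.0%. FPKM divides by gene length, and the annotated exon lengths of these genes run from 396 to 1889 bases, so the shares depend on the length used by the authors, which is not given.

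**Figure D3:**
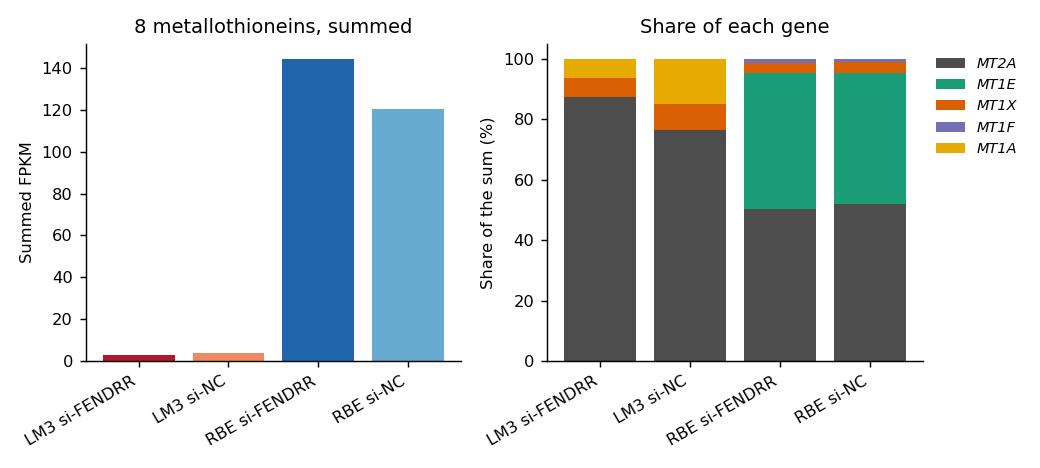
Summed FPKM of the 8 metallothionein members in each library (left) and the share of each gene in that sum in percent (right). RBE holds 144 and 120 FPKM, mostly MT2A and MT1E, and LM3 holds 2.94 and 3.90 FPKM, mostly MT2A.

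Along the cluster on chromosome 16, expressed genes and genes listed at 0 were interspersed. In genome order, MT4 and MT3 came first, below 1 FPKM in every library. In RBE, MT2A and MT1E followed, then MT1M, MT1A and MT1B listed at 0, then MT1F, then MT1G and MT1H listed at 0, and MT1X last. Of 12 other metallothionein genes and pseudogenes in the table, none reached 1 FPKM in any library. The highest was the pseudogene MT1P1 at 0.407 FPKM in RBE si-FENDRR and a listed 0 in RBE si-NC. MT3, the brain form, was listed at 0 in both LM3 libraries, against 0.143 and 0.292 FPKM in RBE.

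The neighbours BBS2, OGFOD1, NUP93, NUDT21 and HERPUD1 were above 1 FPKM in all 4 libraries. Neighbours were chosen after the data were seen, as protein-coding genes within 250 kb of its ends. BBS2, a subunit of the ciliary BBSome complex on the MT4 side, was at 8.74 and 9.55 FPKM in LM3, against 14.3 and 15.8 FPKM in RBE (log2 difference of LM3 minus RBE -0.66, adjusted p = 0.0136 by limma). The oxygenase gene OGFOD1 was at 5.26 and 5.24 FPKM in LM3, against 13.2 and 14.0 FPKM in RBE (-1.22, adjusted p = 0.0038 by limma). NUP93, a nuclear pore gene on the MT1X side, was at 18.3 and 20.5 FPKM in LM3, against 21.1 and 24.3 FPKM in RBE (-0.21, adjusted p = 0.174 by limma). Of the other neighbours described here, NUDT21 and HERPUD1 were called lower in LM3, and GNAO1 and SLC12A3 were too low to be tested. The share called lower in LM3 over all tested genes was 26.4%.

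**Figure D4:**
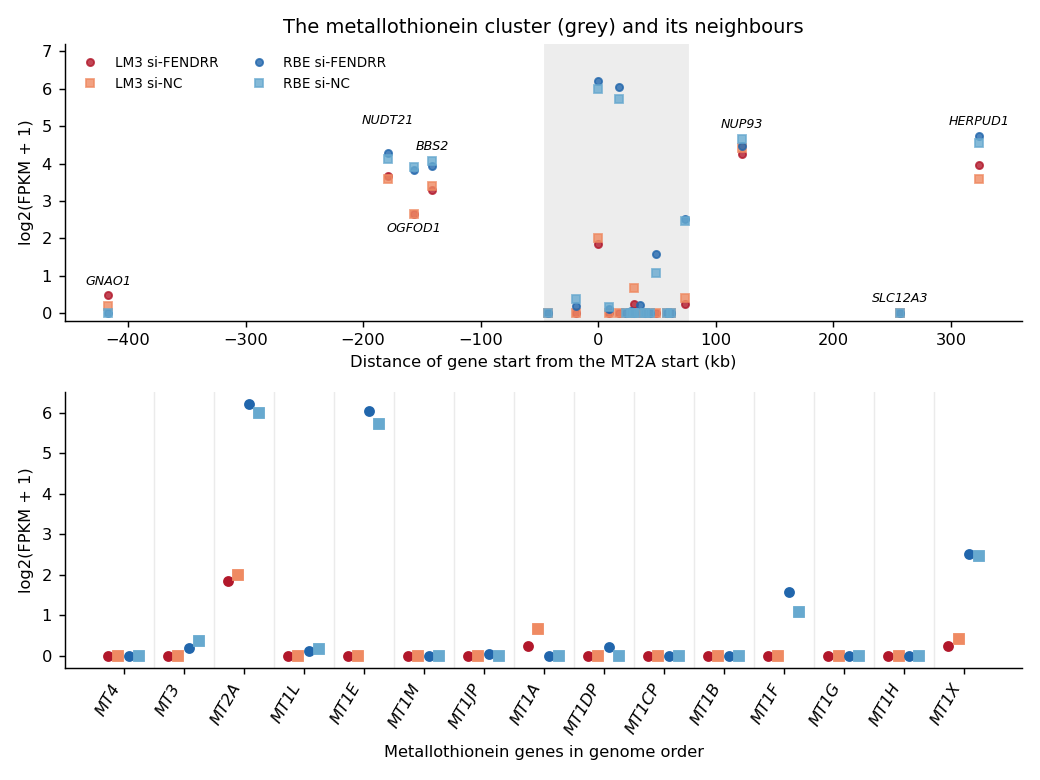
Top, log2(FPKM + 1) of genes by distance of their start from the MT2A start in kb, with the metallothionein cluster in grey. Bottom, the metallothionein genes of the cluster in genome order, 1 point per library. The neighbours BBS2, OGFOD1, NUDT21 and HERPUD1 are expressed in both lines and were called lower in LM3. NUP93 is expressed in both lines and was not called. Within the cluster only MT2A, MT1E, MT1F and MT1X reach 1 FPKM in any library.

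No member passed the test for si-FENDRR against si-NC. Over both lines, 0 of 15930 genes (0%) were called by limma at an adjusted p of 0.05, with 657 at an unadjusted p under 0.05, so the members' 0 is that of all genes. The smallest adjusted p of a member was 0.96, for MT1F. MT2A had a log2(FPKM + 1) difference of si-FENDRR minus si-NC of 0.03 ± 0.15 (SE, n = 2 lines, adjusted p = 0.989 by limma), made of -0.16 in LM3 and 0.22 in RBE. MT1E was at 0.31 on that scale in RBE, MT1F at 0.50 in RBE, and MT1A at -0.42 in LM3. MTF1 had -0.06 in LM3 and 0.04 in RBE, and SLC30A1 had 0.04 and -0.01. No member differed 2-fold in FPKM + 1 between the libraries of a line, where 2.13% of the tested genes did so in LM3 and 1.75% in RBE.

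Exporters of the SLC30 family carry zinc out of the cytosol into vesicles, organelles or the medium. Besides SLC30A1, 6 of 9 listed exporters passed the filter, with 1 called higher in LM3, 3 called lower and 2 not called. The called share was 66.7%, against 58.7% of all tested genes. SLC30A3 and SLC30A4, both among those called lower, passed the filter only through RBE, which favours a difference. The median log2 difference of LM3 minus RBE was -0.41 over the 6. SLC30A3 was at 0.05 FPKM after si-FENDRR and a listed 0 after si-NC in LM3, against 1.55 and 1.18 FPKM in RBE. SLC30A4 was at 0.103 and 0.0591 FPKM in LM3, against 1.32 and 1.11 FPKM in RBE. SLC30A7, which loads zinc into the early secretory pathway, was at 3.63 and 3.58 FPKM in LM3, against 1.95 and 1.80 FPKM in RBE (log2 difference of LM3 minus RBE 0.68, adjusted p = 0.0172 by limma). SLC30A5, of the same compartment, was at 12.4 and 12.6 FPKM in LM3, against 10.5 and 9.59 FPKM in RBE and was not called. SLC30A9 was at 6.21 and 7.15 FPKM in LM3, against 10.6 and 10.5 FPKM in RBE (adjusted p = 0.0226 by limma).

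Importers of the SLC39 family bring zinc into the cytosol. Of 14 listed importers, 11 passed, with 5 called higher in LM3, 0 called lower and 6 not called. The called share was 45.5%, against 58.7% of all tested genes. Their median log2 difference of LM3 minus RBE was 0.54, against 0.09 over all tested genes. SLC39A13 was at 19.0 FPKM after si-FENDRR and 14.5 after si-NC in LM3, against 7.08 and 10.1 FPKM in RBE (0.89, adjusted p = 0.0386 by limma). SLC39A3 was at 17.4 and 21.0 FPKM in LM3, against 10.1 and 9.86 FPKM in RBE (0.87, adjusted p = 0.0103 by limma). SLC39A14, a liver importer of zinc and iron, was at 26.4 and 27.3 FPKM in LM3, against 23.8 and 12.2 FPKM in RBE and was not called. SLC39A9 was at 9.61 and 8.45 FPKM in LM3, against 10.5 and 12.0 FPKM in RBE, and SLC39A8 at 4.20 and 3.32 against 2.80 and 3.99 FPKM. Neither was called.

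**Figure D5:**
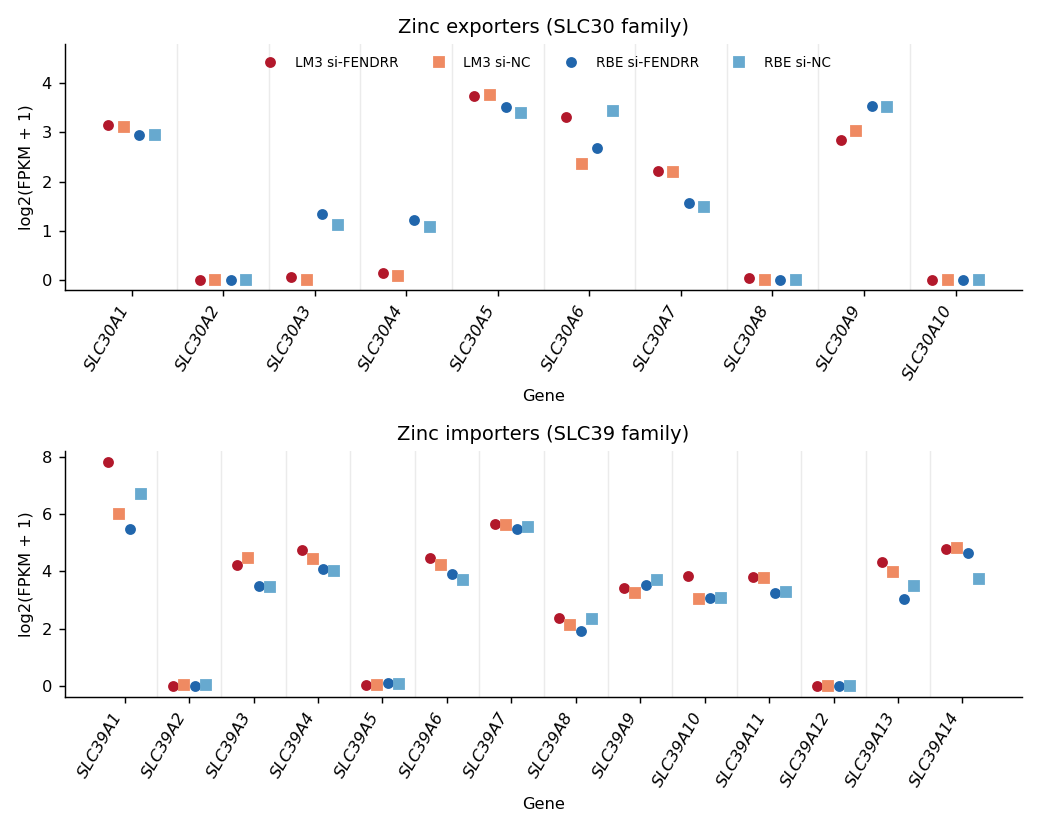
log2(FPKM + 1) of SLC30A1 and the other zinc exporters (top) and of the zinc importers (bottom), 1 point per library. SLC30A3 and SLC30A4 are near 0 in both LM3 libraries, and the points of SLC39A1 cross between the lines.

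By transfection, 0 of these 17 transporters that passed the filter were called. SLC39A1, chosen after its values were seen, was the one past 2-fold of FPKM + 1, and in opposite directions. In LM3 it was at 221 FPKM after si-FENDRR and 62.9 after si-NC, and in RBE at 43.8 and 104 FPKM.

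Copper genes encode proteins that handle a metal also held by metallothioneins. Of 16 rows for 15 genes, 15 passed the filter, with 3 called higher in LM3 and 6 called lower between the lines. ATP7B, named here for this reason, was among those called lower and passed the filter only through RBE. The 9 called of 15 are a share near the 58.7% of all tested genes, and the median log2 difference of LM3 minus RBE was -0.19. The metalloreductase STEAP2 was at 6.15 and 6.71 FPKM in LM3, against 1.17 and 1.13 FPKM in RBE (log2 difference of LM3 minus RBE 1.79, adjusted p = 0.00231 by limma). The mitochondrial copper chaperone COX17 was at 75.2 and 56.8 FPKM in LM3, against 29.8 and 26.3 FPKM in RBE (1.20, adjusted p = 0.00405 by limma). COX11, which helps to insert copper into cytochrome c oxidase, was at 4.88 and 4.93 FPKM in LM3, against 10.6 and 15.7 FPKM in RBE, and COMMD1 at 8.05 and 8.51 against 19.9 and 15.7 FPKM. Both were called.

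Metallothioneins are also induced by glucocorticoids and by oxidative stress. NR3C1, the glucocorticoid receptor, was at 5.63 and 5.36 FPKM in LM3, against 12.3 and 14.7 FPKM in RBE (log2 difference of LM3 minus RBE -1.16, adjusted p = 0.00578 by limma). Of 8 genes of the glucocorticoid list, 7 passed, with 2 called lower in LM3 and 0 called higher. The called share was 28.6%, against 58.7% of all tested genes, and the median log2 difference was -0.06. SGK1 was the other called gene, at 1.44 and 1.52 FPKM in LM3, against 2.64 and 2.88 FPKM in RBE. TSC22D3 was at 36.2 and 28.3 FPKM in LM3, against 25.8 and 23.1 FPKM in RBE, and KLF9 at 0.987 and 1.06 against 0.651 and 0.674 FPKM. Neither was called, and KLF9 passed the filter only through LM3.

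Of 12 genes of metal and oxidative stress, 6 were called higher in LM3 and 1 lower. The called share of 58.3% was near the 58.7% of all tested genes, and the median log2 difference was 1.10, against 0.09 over all tested genes. NQO1, a quinone reductase, was at 487 and 479 FPKM in LM3, against 34.8 and 31.9 FPKM in RBE (log2 difference of LM3 minus RBE 3.82, adjusted p = 0.000612 by limma). The cystine transporter SLC7A11 was at 21.7 and 21.0 FPKM in LM3, against 0.861 and 0.918 FPKM in RBE (3.56, adjusted p = 0.000778 by limma). SLC7A11 passed the filter only through LM3, which favours a difference. KEAP1, the inhibitor of NRF2, was at 5.42 and 6.01 FPKM in LM3, against 20.4 and 20.7 FPKM in RBE (-1.69, adjusted p = 0.0021 by limma). The heat shock gene DNAJB1 was at 115 and 106 FPKM in LM3, against 129 and 126 FPKM in RBE and was not called.

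By transfection, no gene of the copper, glucocorticoid or stress lists was called. The highest and lowest of each list over both lines were SCO2 and CCS among copper genes, DUSP1 and NR3C1 among glucocorticoid genes, and NFE2L2 and HMOX1 among stress genes. DUSP1, a phosphatase of MAP kinases, was at 62.9 FPKM after si-FENDRR and 50.1 after si-NC in LM3, while RBE had 58.9 and 47.8 FPKM. FKBP5 of the glucocorticoid list, named after its values were seen, was past 2-fold of FPKM + 1 in LM3. It was at 10.3 FPKM after si-FENDRR and 4.35 after si-NC there, while RBE went the other way with 4.77 and 10.4 FPKM. HMOX1, heme oxygenase, was at 71.3 and 87.7 FPKM in LM3, while RBE had 20.6 and 22.1 FPKM. NFE2L2, which encodes NRF2, was at 45.5 and 21.5 FPKM in LM3, while RBE had 24.7 and 23.9 FPKM. The copper chaperone CCS had 5.87 and 8.64 FPKM in LM3, while RBE had 8.38 and 8.80 FPKM. SCO2, which helps to build cytochrome c oxidase, has 2 overlapping rows on the same strand of chromosome 22, so its values are uncertain. The higher row had 17.2 and 4.95 FPKM in LM3, while RBE had 17.4 and 4.12 FPKM.

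The genes closest to MT2A in pattern were ranked by Euclidean distance between centred log2(FPKM + 1) values over the 4 libraries. The 5 nearest protein-coding genes were SPNS2 at a distance of 0.1, BASP1 at 0.137, CLDN10 and RTL8B at 0.175 and CST4 at 0.196. SPNS2, an exporter of sphingosine 1-phosphate, was at 0.898 and 1.19 FPKM in LM3, against 35.9 and 33.3 FPKM in RBE. In each of the 5, both LM3 libraries were lower than both RBE libraries, which follows from choosing them by likeness to MT2A. BASP1, CLDN10, RTL8B and CST4 were under 1 FPKM in both LM3 libraries and passed the filter only through RBE.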

How the data were processed

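Transcript levels were deposited by the authors as FPKM, per the file headers, in 1 table of 4 libraries whose single-library files hold the same values. The submitters' processing notes name FastQC, HISAT2 and the build hg38. The sources used here name neither the program nor the annotation behind the FPKM. Coordinates are those of the deposited table. Of its genes, 57836 were in GENCODE release 29, with the same start in 97.8%. The files hold no counts. In single-exon genes low values piled up at steps of 43.0 to 49.9 FPKM times base pairs, but 10.7% to 15.6% of them were whole multiples to within 0.02, so no reads could be recovered and the depth is unknown.

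Values went as log2(FPKM + 1) into limma 3.58.1 in R 4.3.3 with a trended prior variance. It covered the 15930 genes that reached 1 FPKM in some library. The model had terms for line and transfection, leaving 1 residual degree of freedom. Lines served as replicates of a transfection, and the 2 transfections as replicates of a line, so p-values measure only the spread between these libraries. P-values were adjusted by Benjamini-Hochberg over all genes, with a threshold of 0.05. The fit was also run on data simulated from its own variance model, which checks the code and not whether the model suits these libraries. Log2 differences are of FPKM + 1, a scale that understates the change of low genes. Alternatives covered the pseudocount, filter, scaling, prior variance, model terms and single libraries. The members, gene lists and tests were chosen with earlier results of these data known. Genes outside the members were named by rule. In each list these were the 2 highest and 2 lowest between the lines and the highest and lowest by transfection. Exceptions are stated. ALB, KRT7 and the apolipoprotein genes were named as markers, and SERPINA1 and SPP1 as markers going the other way. 1 gene beside the metallothionein cluster is not reported here.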

Additional observations from a re-analysis of the deposited data

Results flagged for a closer look

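4 members had differences of opposite sign in the lines between si-FENDRR and si-NC, on the log2(FPKM + 1) scale. MT2A had -0.16 in LM3 and 0.22 in RBE. MT1X had -0.16 in LM3 and 0.039 in RBE. MTF1 had -0.058 in LM3 and 0.036 in RBE. SLC30A1 had 0.042 in LM3 and -0.015 in RBE. With 1 library per line and transfection, none of these differences between the lines was tested. The zinc importer SLC39A1 had larger differences, 1.80 in LM3 and -1.22 in RBE, also not tested.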

How the results depend on the processing

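MT2A kept its direction and its call between the lines under every alternative that tested it. So did MT1E, MT1X and MT1F, which passed the filter only through RBE, so that their calls say nothing about stability. Adjusted p-values by limma of the 4 were at most 0.0273. MTF1 and SLC30A1 were not called under any. The log2 difference of LM3 minus RBE ran from -4.56 to -3.22 for MT2A and from -3.76 to -0.87 for MT1X, moved mainly by the pseudocount. By transfection no alternative called a member. With median-of-ratios scaling the differences of MT2A and SLC30A1 changed sign, to -0.0013 and -0.0173. Genes past 2-fold within a line numbered 339 in LM3 and 279 in RBE. They numbered 940 and 818 with a pseudocount of 0.1, 100 and 83 with a pseudocount of 5, and 1269 and 999 at 1.5-fold. Single-line and single-transfection values rest on 2 libraries and have no test. Leaving out the line or transfection term (no replicate block) changed no call of a member. The depth behind each FPKM is unknown, so genes listed at 0 carry no upper limit.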
